A study of Mus musculus with 7 samples.

Results

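Interferon-stimulated antiviral genes are the effectors that a cell makes after it has sensed interferon, and 38 of them were followed here in naive CD4 T cells of mice with an overactive form of a phosphoinositide 3-kinase. They were taken by symbol from the deposited expression table, as antiviral effectors and sensors without the GTPase families, the interferon regulatory factors and the STAT factors, and all 38 were found among its 34745 genes. The Mx genes are dynamin-like GTPases but belong to the 38. All 38 passed the filter on low counts that left 12668 genes for testing.

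The mutant mice (GOF) were heterozygous for a gain-of-function allele of PIK3CD. This gene makes p110delta, the catalytic part of a phosphoinositide 3-kinase found mainly in leukocytes. They were compared with wild-type littermates (WT). All were male C57BL/6 mice of 8 weeks, untreated, and naive CD4 T cells were taken from the spleen by negative selection and not cultured. There were 4 GOF and 3 WT libraries of total RNA, with 14497957 to 16293539 counts each. The labels do not name the mutation. The allele was not stated to be limited to T cells, and a purity of the cells is not given in the sources used here.

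Interferons reach the nucleus through the JAK-STAT pathway. Type I interferons bind IFNAR1 and IFNAR2, and the kinases JAK1 and TYK2 then activate the complex ISGF3, which holds STAT2 and IRF9 and binds the interferon-stimulated response element (ISRE). Interferon gamma binds IFNGR1 and IFNGR2, and JAK1 and JAK2 then act on genes that carry the gamma-activated sequence (GAS). Lymphocytes keep a low basal level of many of these genes without infection.

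Most antiviral genes were higher in GOF cells. In the quasi-likelihood test of edgeR, 34 of 38 were higher and 0 were lower at an adjusted p under 0.05, where 16.8% of all tested genes were higher and 14.5% lower. With limma on log2(FPKM + 1), scaled by total counts alone, 34 members were likewise higher and 0 lower, where 20.5% of all tested genes were higher and 11.0% lower. For each of these 34 the 4 GOF libraries all lay above the 3 WT libraries, an order held by 21.5% of all tested genes. The rise was at least 2-fold for 26 members and at least 4-fold for 17, against 9.59% and 5.51% of all tested genes. The median log2 fold change was 1.76 over the members and 0.01 over all tested genes. The 4 members that did not pass were Ifit2, Ifi35, Dtx3l and Parp14. In bulk RNA a change in the number of cells of a type and a change in RNA per cell cannot be told apart, and this holds for every gene given here. No member was lower at an unadjusted p under 0.05 (0 in edgeR), and DESeq2 called 34 members higher and 0 lower, where 16.9% and 13.0% of the genes it tested were. Here and below, CPM are counts scaled to a common library total, folds and log2 fold changes are those fitted by edgeR for GOF over WT, SE is their standard error, and adjusted p-values are those of edgeR with Benjamini-Hochberg adjustment over all 12668 genes.

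**Figure D1:**
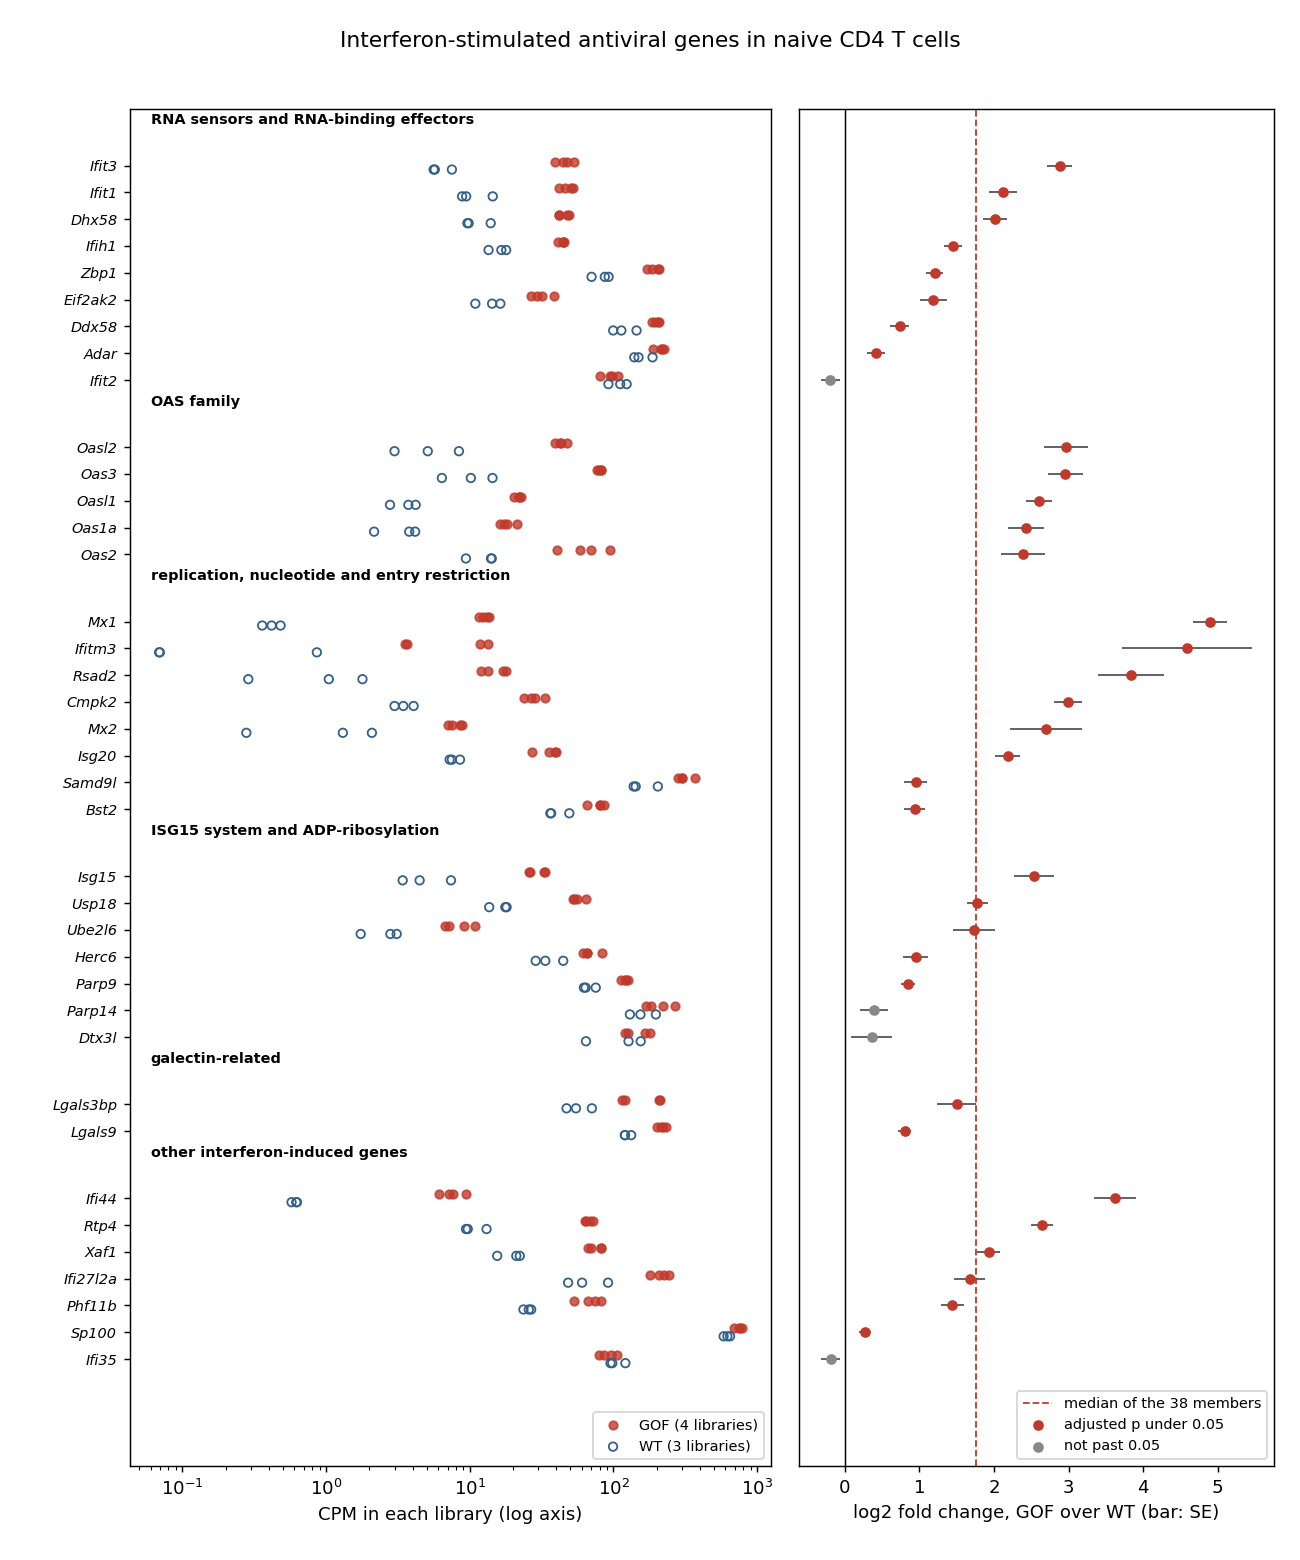
Antiviral genes by role, with the CPM of each library on a log axis at left (filled red, 4 GOF; open blue, 3 WT) and the log2 fold change of GOF over WT with its SE at right. Red marks at right passed an adjusted p of 0.05, grey marks did not, and the dashed line is the median of the 38 genes at 1.76. GOF and WT points are apart for 34 genes and overlap for Ifit2, Dtx3l, Parp14 and Ifi35.

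The start regions of the members were searched for the letters of the ISRE and the GAS. The RefSeq promoter table (GRCm38.p6) held 28 of the 38 members, each from 250 bases before to 50 bases after a start site. The others are Ifi27l2a, Mx1, Mx2, Dhx58, Usp18, Parp9, Parp14, Rtp4, Oas2 and Zbp1. The ISRE core, searched as GAAANNGAAA on both strands with overlapping matches kept, was present for 13 of these 28 genes, against 3.99% of 27025 genes and 3.44% of 32851 promoters in the table. The core was present for 7 of the 12 matched members that rose at least 4-fold, for 6 of the 13 that rose less, and for 0 of the 3 that did not pass (Ifit2, Ifi35 and Dtx3l). The GAS letters, TTCNNNGAA, which read the same on either strand, were present for 8 of the 28 members and for 9.55% of the genes in the table. They were present for 3 of the 12 members that rose at least 4-fold and for 3 of the 13 that rose less. Of the 3 that did not pass, 2 held them, Ifit2 and Ifi35. Matches of both motifs can share bases, and a match is a description of the letters, not a measured site. Genes with several listed start sites counted once, with a match at any of them.

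Shown are the 160 bases before the start site, 5′ to 3′ on the gene's own strand, for 6 members that rose at least 4-fold and held the core there, with the core in capitals. Ifit2 and Ifi35 are shown as the members with the 2 log2 fold changes below 0. Oasl1, Oasl2, Cmpk2, Isg20 and Ifi44 rose at least 4-fold without the core in the window searched, and are not shown. Whether the core or the GAS letters go with the size of the rise was not tested.
Isg15 (chr4:156200819-156200978, minus strand): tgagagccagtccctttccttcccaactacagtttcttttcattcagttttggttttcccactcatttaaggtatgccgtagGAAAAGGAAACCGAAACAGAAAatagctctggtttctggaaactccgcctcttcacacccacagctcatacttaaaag
Ifit1 (chr19:34640729-34640888, plus strand): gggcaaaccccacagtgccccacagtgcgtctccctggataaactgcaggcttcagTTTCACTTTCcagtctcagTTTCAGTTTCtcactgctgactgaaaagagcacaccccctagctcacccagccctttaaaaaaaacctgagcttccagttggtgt
Ifit3 (chr19:34583369-34583528, plus strand): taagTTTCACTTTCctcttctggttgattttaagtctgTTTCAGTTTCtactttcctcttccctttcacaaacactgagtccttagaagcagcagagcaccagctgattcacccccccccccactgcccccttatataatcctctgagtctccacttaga
Rsad2 (chr12:26456453-26456612, minus strand): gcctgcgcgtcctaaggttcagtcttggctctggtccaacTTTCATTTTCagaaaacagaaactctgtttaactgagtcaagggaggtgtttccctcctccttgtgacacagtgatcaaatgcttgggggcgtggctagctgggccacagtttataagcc
Oas3 (chr5:120777660-120777819, minus strand): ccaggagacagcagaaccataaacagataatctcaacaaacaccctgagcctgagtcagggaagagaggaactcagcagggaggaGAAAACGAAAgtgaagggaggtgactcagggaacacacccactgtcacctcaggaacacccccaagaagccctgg
Oas1a (chr5:120907526-120907685, minus strand): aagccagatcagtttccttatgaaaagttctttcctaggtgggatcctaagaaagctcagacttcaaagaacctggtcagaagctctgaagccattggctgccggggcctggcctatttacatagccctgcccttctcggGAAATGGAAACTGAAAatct
Ifit2 (chr19:34550534-34550693, plus strand): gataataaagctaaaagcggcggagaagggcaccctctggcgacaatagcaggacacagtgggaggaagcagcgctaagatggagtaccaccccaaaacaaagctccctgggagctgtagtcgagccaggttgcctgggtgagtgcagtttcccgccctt
Ifi35 (chr11:101448252-101448411, plus strand): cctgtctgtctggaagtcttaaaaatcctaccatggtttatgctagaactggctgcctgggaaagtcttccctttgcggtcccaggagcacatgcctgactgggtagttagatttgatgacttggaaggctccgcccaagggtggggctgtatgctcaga
In Isg15, 3 overlapping cores form a single run that begins 78 bases before the start. Ifit1 and Ifit3 each hold 2 separate cores, on the opposite strand, the first beginning 104 bases before the start in Ifit1 and 156 in Ifit3, and the first of 2 overlapping cores in Oas1a begins 20 bases before it. For Ifit2 and Ifi35 the core letters are not in the window searched. The starts shown are those of the first listed transcript.

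The RNA sensors include RIG-I (Ddx58) and MDA5 (Ifih1), helicases that bind viral RNA and signal through MAVS, and LGP2 (Dhx58), which modulates them. Of the 9 genes of this group 8 rose and 0 fell. Ifit3, which belongs to the IFIT family of RNA-binding proteins (ENSMUSG00000074896, mm10 chromosome 19, 34583531 to 34588731), had 53.4, 39.3, 47.8 and 44.6 CPM in GOF replicates 1 to 4, against 5.60, 7.51 and 5.71 CPM in WT replicates 1 to 3. Its log2 fold change was 2.88 (SE 0.17, adjusted p = 6.79e-06), and the lowest GOF library was more than 5 times the highest WT library. Dhx58 had 49.1, 41.8, 47.6 and 41.5 CPM in GOF replicates 1 to 4, against 9.63, 14.0 and 9.82 CPM in WT replicates 1 to 3, with a log2 fold change of 2.01 (SE 0.16, adjusted p = 3.85e-05). Ifih1 had 45.2, 44.6, 44.3 and 41.0 CPM in GOF replicates 1 to 4, against 16.6, 17.9 and 13.5 CPM in WT replicates 1 to 3, with a log2 fold change of 1.45 (SE 0.12, adjusted p = 5.79e-05). Both helicases were nearly level across the 4 GOF mice. Ifit1, which binds RNA with a viral type of cap, had 51.9, 42.0, 50.6 and 46.0 CPM in GOF replicates 1 to 4, against 14.4, 9.44 and 8.84 CPM in WT replicates 1 to 3, and rose 4.37-fold (log2 2.13, SE 0.19, adjusted p = 6.6e-05).

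Zbp1, Eif2ak2, Ddx58 and Adar rose less. Zbp1, a sensor of Z-form nucleic acid that can trigger necroptosis, rose 2.30-fold, and Eif2ak2, the kinase PKR that halts translation on double-stranded RNA, rose 2.28-fold (adjusted p = 0.000116 and 0.00144). Ddx58 averaged 199 ± 9.83 CPM in GOF and 119 ± 23.1 CPM in WT (SD, n = 4 and 3), a rise of 1.67-fold (adjusted p = 0.00253). Adar, the editing enzyme that marks the cell's own double-stranded RNA, had 217, 226, 189 and 216 CPM in GOF replicates 1 to 4, against 149, 187 and 139.6 CPM in WT replicates 1 to 3. Its groups were barely apart, and its rise of 1.34-fold (adjusted p = 0.0236) was no longer past 0.05 without GOF replicate 1, GOF replicate 4, WT replicate 1 or WT replicate 3 (adjusted p = 0.055, 0.0501, 0.0756 and 0.0951).

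Ifit2, a further IFIT gene, did not pass, although its neighbours on the chromosome did. The deposited loci place Ifit2 at 34550694 to 34576419 and Ifit3 at 34583531 to 34588731 on chromosome 19, 7111 bases apart, with Ifit1 52139 bases further on. Ifit2 had 108, 97.7, 95.3 and 80.5 CPM in GOF replicates 1 to 4, against 92.2, 124 and 111 CPM in WT replicates 1 to 3. The groups overlapped, and the log2 fold change was -0.19 (SE 0.13, adjusted p = 0.289). Per length, Ifit2 was the most abundant of these 3 genes in WT cells, at 24.2 ± 3.60 FPKM (a level per transcript length; SD, n = 3), where Ifit1 was at 3.97 ± 1.08 and Ifit3 at 3.48 ± 0.589 FPKM. In GOF cells the 3 genes were at 22.3 ± 2.74, 18.3 ± 1.77 and 27.1 ± 3.53 FPKM (SD, n = 4). Ifit3b and Ifit1bl1, close copies in the same cluster, rose with log2 fold changes of 3.30 and 1.28 (adjusted p = 0.000118 and 0.000153), and reads of near-identical copies may have been divided between them, so the values of Ifit3 and Ifit3b are uncertain. Whether the change of Ifit2 differs from that of its neighbours was not tested.

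The OAS family makes 2-5A, a second messenger of the antiviral response, on sensing double-stranded RNA. All 5 members rose at least 4-fold. Oas3, the form that responds to long double-stranded RNA, had 82.3, 82.3, 79.2 and 76.5 CPM in GOF replicates 1 to 4, against 6.39, 14.4 and 10.2 CPM in WT replicates 1 to 3. Its 4 GOF libraries varied by a coefficient of variation (SD over mean) of 3.45%, the least of the 38 genes, and its log2 fold change was 2.95 (SE 0.23, adjusted p = 3.55e-05). Oasl1, an OAS-like protein without the enzyme activity that restrains translation of Irf7 in mice, had 20.4, 22.1, 22.7 and 21.9 CPM in GOF replicates 1 to 4, against 3.74, 4.20 and 2.79 CPM in WT replicates 1 to 3 (log2 2.60, SE 0.18, adjusted p = 1.53e-05). Oasl2 had 47.6, 39.5, 43.1 and 42.7 CPM in GOF replicates 1 to 4, against 5.10, 8.40 and 2.99 CPM in WT replicates 1 to 3, and Oas1a had 21.3, 17.3, 18.0 and 16.1 CPM in GOF replicates 1 to 4, against 4.17, 3.79 and 2.16 CPM in WT replicates 1 to 3. Their log2 fold changes were 2.97 and 2.43 (SE 0.29 and 0.24, adjusted p = 0.000123 for both). Oas1a has close copies in the mouse genome, and its value is uncertain because the treatment of reads that match several copies is not known.

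Oas2 was uneven among the GOF mice. It had 40.4, 58.7, 70.3 and 94.2 CPM in GOF replicates 1 to 4, against 14.2, 14.1 and 9.40 CPM in WT replicates 1 to 3, so that the highest GOF library was 2.33 times the lowest, while Oas3, whose locus lies 3244 bases away on chromosome 5, differed by 1.07 times over the same libraries. All GOF values of Oas2 were above those in WT (log2 2.39, SE 0.29, adjusted p = 0.000413). Its order among the GOF libraries, lowest in replicate 1 and highest in replicate 4, was not that of the macrophage markers described below. The cause of this spread was not tested. Oas2 was given library by library after its values were seen.

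Genes that restrict replication, nucleotide supply and entry held the largest changes, and all 8 rose. Mx1 (ENSMUSG00000000386, mm10 chromosome 16, 97447035 to 97462907) traps the nucleoproteins of influenza viruses in mice that carry an intact gene, and the allele of C57BL/6 mice is known not to make a working protein. It had 13.2, 11.6, 13.7 and 12.4 CPM in GOF replicates 1 to 4, against 0.359, 0.482 and 0.418 CPM in WT replicates 1 to 3, from 18 counts over the 3 WT libraries together. Its log2 fold change of 4.89 (SE 0.23, adjusted p = 2.52e-06) was the largest among the members with all 7 libraries in the fit, and its p was the smallest. Rsad2, viperin, makes a chain-terminating nucleotide from CTP, and had 16.9, 13.3, 17.9 and 11.9 CPM in GOF replicates 1 to 4, against 0.287, 1.79 and 1.04 CPM in WT replicates 1 to 3. Cmpk2, a nucleotide kinase whose gene lies 12751 bases from Rsad2 on chromosome 12, had 26.7, 28.2, 33.6 and 23.7 CPM in GOF replicates 1 to 4, against 3.45, 4.06 and 2.99 CPM in WT replicates 1 to 3. The neighbours rose together, Rsad2 by 3.83 and Cmpk2 by 3.00 on the log2 scale (SE 0.44 and 0.19, adjusted p = 0.000299 and 9.9e-06), and in GOF libraries both were highest in replicate 3 and lowest in replicate 4. The WT level of Rsad2 was low and uneven, and without WT replicate 2 its log2 fold change was 4.47.

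Isg20, an exonuclease that degrades RNA, had 35.6, 27.0, 39.5 and 39.1 CPM in GOF replicates 1 to 4, against 8.55, 7.51 and 7.24 CPM in WT replicates 1 to 3, a rise of 4.54-fold (log2 2.18, SE 0.17, adjusted p = 3.17e-05). Mx2 averaged 7.96 ± 0.849 CPM in GOF and 1.22 ± 0.905 CPM in WT (SD, n = 4 and 3), and its log2 fold change of 2.70 (adjusted p = 0.00309) became 3.31 without WT replicate 1. Samd9l, which inhibits translation, and Bst2, tetherin, which holds budding virus at the cell surface, were already well expressed in WT cells. They rose 1.94-fold and 1.92-fold (adjusted p = 0.0019 and 0.00142).

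Ifitm3, which blocks the fusion of virus with endosomes, differed from the rest in its spread. It had 11.8, 3.64, 13.5 and 3.54 CPM in GOF replicates 1 to 4, against 0.862, 0.0689 and 0.0696 CPM in WT replicates 1 to 3. GOF replicates 1 and 3 stood at more than 3 times replicates 2 and 4, and 12 of the WT counts came from WT replicate 1, against 1 each in WT replicates 2 and 3. The log2 fold change was 4.59 (SE 0.87, adjusted p = 0.00429), 6.71 without WT replicate 1 and 3.40 without GOF replicates 1 and 3 (adjusted p = 0.0383). Its relatives Ifitm1 and Ifitm2 rose too (log2 1.61 and 2.35, adjusted p = 0.0155 and 0.00841). Ifitm6, with 3 WT counts in all, had 5.14, 1.60, 4.57 and 1.48 CPM in GOF replicates 1 to 4, against 0.215, 0 and 0 CPM in WT replicates 1 to 3. Ifitm3, Ifitm1 and Ifitm2 were singled out after their values were seen.

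The ISG15 system attaches the ubiquitin-like protein ISG15 to other proteins, with UBE2L6 as its conjugating enzyme, HERC6 as the ligase in mice and USP18 as the protease that removes it and also damps signalling at IFNAR2. All 4 genes rose. Usp18 had 55.6, 52.4, 53.5 and 64.3 CPM in GOF replicates 1 to 4, against 17.7, 18.0 and 13.7 CPM in WT replicates 1 to 3 (log2 1.78, SE 0.14, adjusted p = 3.06e-05). Isg15 (ENSMUSG00000035692, mm10 chromosome 4, 156199424 to 156200818) had 25.8, 26.1, 33.1 and 33.3 CPM in GOF replicates 1 to 4, against 7.40, 4.48 and 3.41 CPM in WT replicates 1 to 3 (log2 2.54, SE 0.26, adjusted p = 0.000159). In both genes the lowest GOF library was well above the highest WT library. Ube2l6 was less abundant, with 10.9, 6.71, 9.14 and 7.20 CPM in GOF replicates 1 to 4, against 2.80, 3.10 and 1.74 CPM in WT replicates 1 to 3, and rose 3.33-fold (adjusted p = 0.00199). Herc6 rose 1.93-fold (adjusted p = 0.00331).

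Parp9, Dtx3l and Parp14 form a block on chromosome 16 and encode a macrodomain protein, its partner E3 ligase and an ADP-ribosyltransferase. Parp9 had 121, 123, 113 and 127 CPM in GOF replicates 1 to 4, against 64.0, 75.3 and 62.2 CPM in WT replicates 1 to 3, a rise of 1.80-fold (log2 0.85, SE 0.10, adjusted p = 0.000277). Dtx3l, whose deposited locus overlaps that of Parp9 by 682 bases, had 179, 126, 167 and 121 CPM in GOF replicates 1 to 4, against 64.4, 155 and 127 CPM in WT replicates 1 to 3. WT replicate 1 was the low one, the groups overlapped, and the log2 fold change of 0.36 did not pass (SE 0.27, adjusted p = 0.347). Parp14 had 183, 269, 167 and 222 CPM in GOF replicates 1 to 4, against 154, 197 and 130.1 CPM in WT replicates 1 to 3, and with overlapping groups its log2 fold change of 0.39 did not pass either (SE 0.19, adjusted p = 0.148). Whether the changes of these 3 neighbours differ from each other was not tested.

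Lgals9, galectin-9, and Lgals3bp, a secreted glycoprotein that binds galectins, both rose. Lgals9 had 214, 199, 234 and 223 CPM in GOF replicates 1 to 4, against 133, 120.4 and 120.0 CPM in WT replicates 1 to 3 (log2 0.81, SE 0.09, adjusted p = 0.00019). Lgals3bp had 206, 114, 211 and 119.9 CPM in GOF replicates 1 to 4, against 70.8, 54.8 and 47.1 CPM in WT replicates 1 to 3 (log2 1.50, SE 0.26, adjusted p = 0.00265). Lgals3bp shared with Ifitm3 the pattern of high values in GOF replicates 1 and 3, and without these libraries its log2 fold change was 1.01 (adjusted p = 0.00994).

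Of the 7 other interferon-induced genes 6 rose. Rtp4, a chaperone of G protein coupled receptors, had 68.6, 63.4, 72.2 and 64.1 CPM in GOF replicates 1 to 4, against 9.41, 13.1 and 9.68 CPM in WT replicates 1 to 3, and rose 6.25-fold (log2 2.64, SE 0.14, adjusted p = 5.55e-06). Ifi44 was at the edge of detection in WT cells, with 8 to 9 counts a library, and had 9.44, 7.15, 6.08 and 7.65 CPM in GOF replicates 1 to 4, against 0.575, 0.62 and 0.627 CPM in WT replicates 1 to 3 (log2 3.62, SE 0.28, adjusted p = 3.06e-05). Xaf1, a pro-apoptotic protein that binds XIAP, had 69.4, 81.3, 66.8 and 81.3 CPM in GOF replicates 1 to 4, against 15.5, 21.1 and 22.3 CPM in WT replicates 1 to 3 (log2 1.93, adjusted p = 3.26e-05). In each of the 3 genes every GOF library was at least 2 times every WT library. Phf11b had 74.3, 53.1, 81.8 and 66.5 CPM in GOF replicates 1 to 4, against 23.6, 25.8 and 26.7 CPM in WT replicates 1 to 3, a rise of 2.72-fold (adjusted p = 0.000184), and its copies Phf11a and Phf11c rose 5.15-fold and 2.13-fold (adjusted p = 0.00437 and 0.000212). The copy Phf11d did not pass (log2 0.71, adjusted p = 0.208), and reads of these copies may have been divided between them, so their values are uncertain.

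Ifi27l2a rose 3.19-fold (adjusted p = 0.000471) and was the most abundant member per length in both genotypes. Sp100, a component of PML nuclear bodies, averaged 746 ± 40.3 CPM in GOF and 618 ± 31.6 CPM in WT (SD, n = 4 and 3). Its small rise of 1.21-fold (adjusted p = 0.0298) was no longer past 0.05 when any single library other than GOF replicate 3 was left out (adjusted p = 0.0535 to 0.0885). Ifi35 had 86.5, 78.7, 96.5 and 107 CPM in GOF replicates 1 to 4, against 121, 95.4 and 98.1 CPM in WT replicates 1 to 3. The groups overlapped and the log2 fold change was -0.19 (SE 0.13, adjusted p = 0.306).

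The size of the rise went with the level in WT cells. The 17 members that rose at least 4-fold had WT means between 0.0774 and 6.61 FPKM, with a median of 1.19. The 9 that rose between 2-fold and 4-fold had a median of 4.62 FPKM in WT, the 8 with a smaller rise 21.4 FPKM and the 4 that did not pass 19.8 FPKM. Across the 38 genes Spearman's rho between the WT level per length and the log2 fold change was -0.81, a description only, since the WT value enters both measures. Ifi27l2a was an exception among the abundant genes, at 471 ± 56.8 FPKM in GOF and 139.6 ± 45.4 FPKM in WT (SD, n = 4 and 3). Phf11b, Zbp1 and Lgals3bp, at 20.8, 16.7 and 12.9 FPKM in WT, rose 2.72-fold, 2.30-fold and 2.83-fold.

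**Figure D2:**
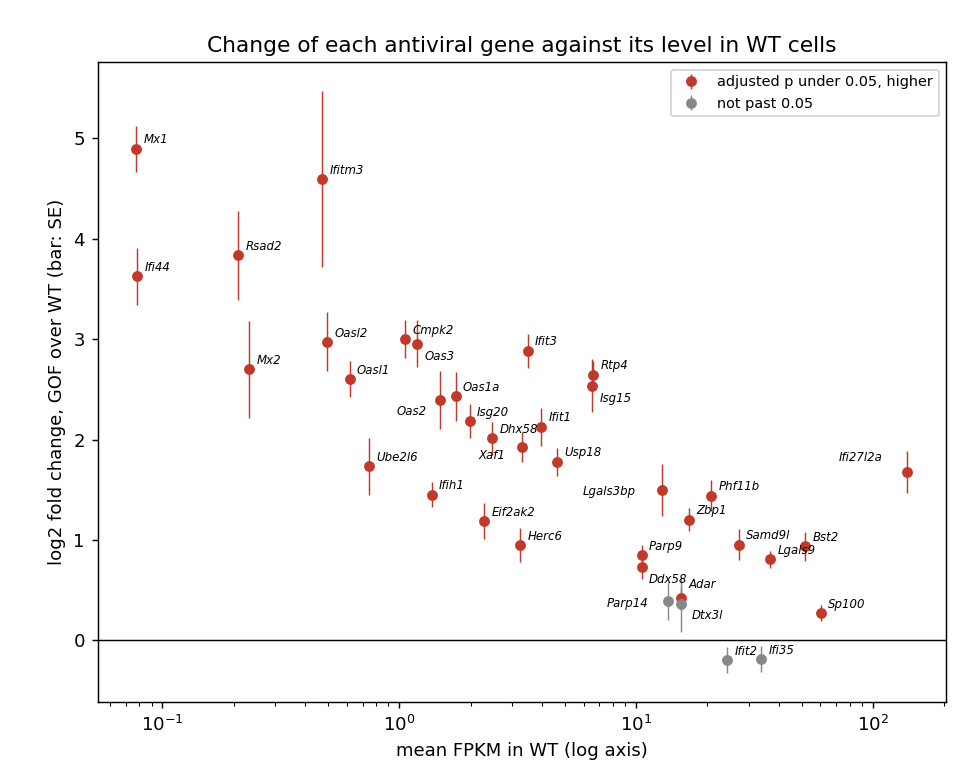
Log2 fold change of GOF over WT with its SE against the mean FPKM in WT on a log axis, for the 38 antiviral genes (red, adjusted p under 0.05; grey, not past 0.05). Genes low in WT lie high in the plot, from Mx1 at 4.89 down to Ifit2 at -0.19, and Ifi27l2a lies far right at 1.68.

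In GOF cells all 38 members averaged at least 1 FPKM, and in WT cells 30 did. The median member stood at 17.5 FPKM in GOF and at 3.73 FPKM in WT. Ifi27l2a led the order of levels in GOF, followed by Bst2, Sp100, Lgals9, Phf11b and Samd9l at 105, 76.6, 68.0, 59.5 and 55.5 FPKM. Phf11b and Samd9l were closer than the SD of Phf11b (10.6 FPKM), as were the members of 25 of the 37 neighbouring pairs in this order, counting the larger SD of each pair. In WT this held for 30 of 37 pairs. Ifi44, Mx2 and Mx1 were the lowest in GOF, at 1.0, 1.60 and 2.48 FPKM.

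The GOF mice differed among themselves in these genes about as much as in other genes, with a median coefficient of variation of 11.9% over the members and 12.4% over all tested genes. A library's score, the mean log2(CPM + 0.5) of the 38 genes, was 5.934, 5.796, 5.939 and 5.832 in GOF replicates 1 to 4, against 4.163, 4.308 and 3.964 in WT replicates 1 to 3. This coefficient was under 15% for 27 members, and over 30% for 3, Ifitm3, Oas2 and Lgals3bp, which were named here after their values were seen. GOF replicates 1 and 3 both lay above 2 and 4 for 14 of the 38, against 25.3% of all tested genes.

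Markers of other cell types were detected, and many were higher in GOF, where 16.8% of all tested genes were higher and 14.5% lower. The CD4 T cell markers were high, with Cd4 at 1107 ± 50.7 CPM in GOF and 755 ± 87.0 CPM in WT (SD, n = 4 and 3) and 6 of 8 markers higher in GOF. Of the naive T cell markers 5 of 8 fell, among them S1pr1, the receptor for exit from lymphoid organs (log2 -1.02, adjusted p = 5.61e-05). Pik3cd itself was lower in GOF (log2 -0.80, adjusted p = 0.0154, and 0.106 without GOF replicates 1 and 3), and counts per gene do not show the allele. Of 19 macrophage and monocyte markers 18 rose, with summed levels of 214 to 711 CPM in GOF and 60.0 to 98.9 CPM in WT, and 18 of the 19 were higher in GOF replicates 1 and 3 than in 2 and 4. Of 9 neutrophil markers tested 8 rose (59.6 to 216 CPM in GOF and 0.766 to 9.48 CPM in WT), as did 8 of 8 NK cell markers (95.4 to 140.2 CPM in GOF and 29.9 to 33.9 CPM in WT) and 7 of 12 B cell markers (798 to 1412 CPM in GOF and 381 to 519.7 CPM in WT). GOF replicates 1 and 3 also lay above 2 and 4 for 8 of these 9 neutrophil, 6 of 8 NK cell and 12 of 12 B cell markers. The same order held for 2 of 8 CD4 T cell markers and for 25.3% of all tested genes. The summed level of the 38 antiviral genes was 3888 to 3994 CPM in GOF and 2107 to 2417 CPM in WT. Of 3 markers of conventional dendritic cells tested 1 rose (10.6 to 26.1 CPM in GOF and 2.37 to 4.13 CPM in WT). The 2 CD8 T cell markers did not pass (21.65 to 30.26 CPM in GOF and 29.45 to 39.12 CPM in WT).

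Plasmacytoid dendritic cells are the main makers of type I interferon. Their defining marker Siglech (chosen after its values were seen) had 2.15, 0.383, 1.56 and 0.193 CPM in GOF replicates 1 to 4, against 0, 0.207 and 0 CPM in WT replicates 1 to 3, too few counts to be tested. Of 4 markers of this type tested 2 rose, Pacsin1 and Spib, and the summed level of the list was 159.9 to 194 CPM in GOF and 74.8 to 102 CPM in WT. Spib did not pass without GOF replicate 1, GOF replicate 3, WT replicate 1 or WT replicate 3 (adjusted p = 0.0563, 0.0556, 0.0682 and 0.0745), and Ccr9 and Tcf4 did not pass with all libraries (adjusted p = 0.0803 and 0.774). Pacsin1 made up most of the sum, at 151 ± 12.1 CPM in GOF and 73.6 ± 10.1 CPM in WT (SD, n = 4 and 3).

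The antiviral genes were also higher in the 2 GOF libraries with the lower summed macrophage markers. In these, GOF replicates 2 and 4, the markers still summed to 214 and 242 CPM, above the 60.0 to 98.9 CPM in WT. Without GOF replicates 1 and 3, 32 members were higher and 0 lower, where 8.53% and 8.34% of all genes tested were, and the median log2 fold change was 1.70. Without GOF replicates 2 and 4, 32 members were higher and 0 lower, where 13.6% and 10.5% of genes were, and the median was 1.84. The SD of the macrophage score over the 4 GOF libraries was 0.86, against 0.07 for the antiviral genes. C1qa, a complement protein of macrophages, was at 42.2, 11.9, 51.0 and 15.2 CPM in GOF replicates 1 to 4, against 0.215, 0.62 and 0.139 CPM in WT replicates 1 to 3. The ratio of its highest to its lowest GOF library was larger than that of any member, the largest of which was 3.81 for Ifitm3. The part that other cells had in each gene's level, and in the rise of the antiviral genes, was not tested.

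**Figure D3:**
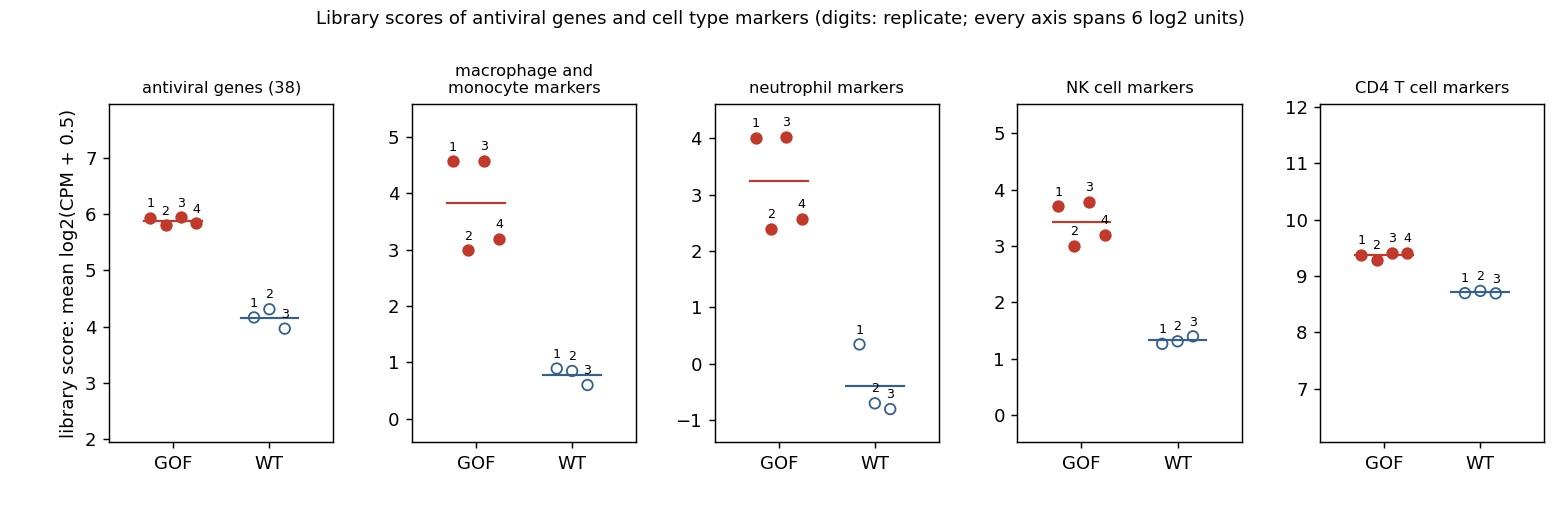
Library scores, the mean log2(CPM + 0.5) of the genes of each list, for the antiviral genes and 4 lists of cell type markers, with GOF left of WT, digits for the replicate and lines for the group mean; each axis spans 6 log2 units. The antiviral score lies between 5.796 and 5.939 in GOF, while the macrophage score of GOF replicates 1 and 3 (4.564 and 4.572) stands above that of 2 and 4 (2.985 and 3.183).

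Interferon transcripts themselves were mostly not detectable at this depth. Of 21 interferon genes 18, Ifnb1 among them, had 0 counts in all 7 libraries, which at 3 counts allows up to 0.18 to 0.215 CPM a library, for counting error only. Ifnab had 3 counts in GOF replicate 4 and 3 in WT replicate 2, and Ifnz had 1 in GOF replicate 2 and 1 in WT replicate 1. Ifng, the interferon of activated T cells and NK cells, was the 1 ligand that could be tested. It had 2.73, 3.83, 4.81 and 5.02 CPM in GOF replicates 1 to 4, against 0, 0.344 and 0.279 CPM in WT replicates 1 to 3, with a log2 fold change of 4.24 (SE 0.62, adjusted p = 0.00118). The NK cell markers were higher in GOF as well, and which cells made Ifng was not tested.

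Of the 5 interferon receptor chains tested 1 rose and 1 fell, where 16.8% of all tested genes rose and 14.5% fell. Ifngr1, the ligand-binding chain for interferon gamma, had 139, 149, 136 and 162 CPM in GOF replicates 1 to 4, against 1084, 1164 and 671 CPM in WT replicates 1 to 3. It was far lower in every GOF library, with a log2 fold change of -2.73 (SE 0.18, adjusted p = 1.23e-05). Ifnar2 averaged 65.9 ± 6.32 CPM in GOF and 48.7 ± 7.36 CPM in WT (SD, n = 4 and 3). Its log2 fold change of 0.44 (adjusted p = 0.0315) was not past 0.05 without GOF replicate 1, 2 or 3 or WT replicate 1 or 3 (adjusted p up to 0.2 over the alternatives). Ifnar1 and Il10rb did not pass (log2 -0.32 and 0.16, adjusted p = 0.0665 and 0.267), and Ifnar1, the other chain of the type I receptor, passed as lower without GOF replicate 2 (adjusted p = 0.0349) or WT replicate 1 (adjusted p = 0.0274).

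Downstream of the receptors, 4 of 10 genes rose and 3 fell, against the same 16.8% and 14.5% of all tested genes. Irf9, the DNA-binding part of ISGF3, averaged 195 ± 4.53 CPM in GOF and 100.1 ± 8.73 CPM in WT (SD, n = 4 and 3; log2 0.96, adjusted p = 6.7e-05). Stat2 and Tyk2, named after their values were seen, rose 1.42-fold and 1.25-fold (adjusted p = 0.0181 and 0.0202). Jak2, the kinase bound to the interferon gamma receptor, fell to 157 ± 15.6 CPM in GOF, against 334 ± 41.3 CPM in WT (log2 -1.08, adjusted p = 0.000142). Socs1, an inhibitor of JAK kinases that interferon itself induces, had 32.9, 33.0, 32.0 and 39.6 CPM in GOF replicates 1 to 4, against 165, 89.8 and 110.0 CPM in WT replicates 1 to 3 (log2 -1.82, SE 0.19, adjusted p = 0.000181). It fell, while Usp18, another inhibitor of this pathway, rose.

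**Figure D4:**
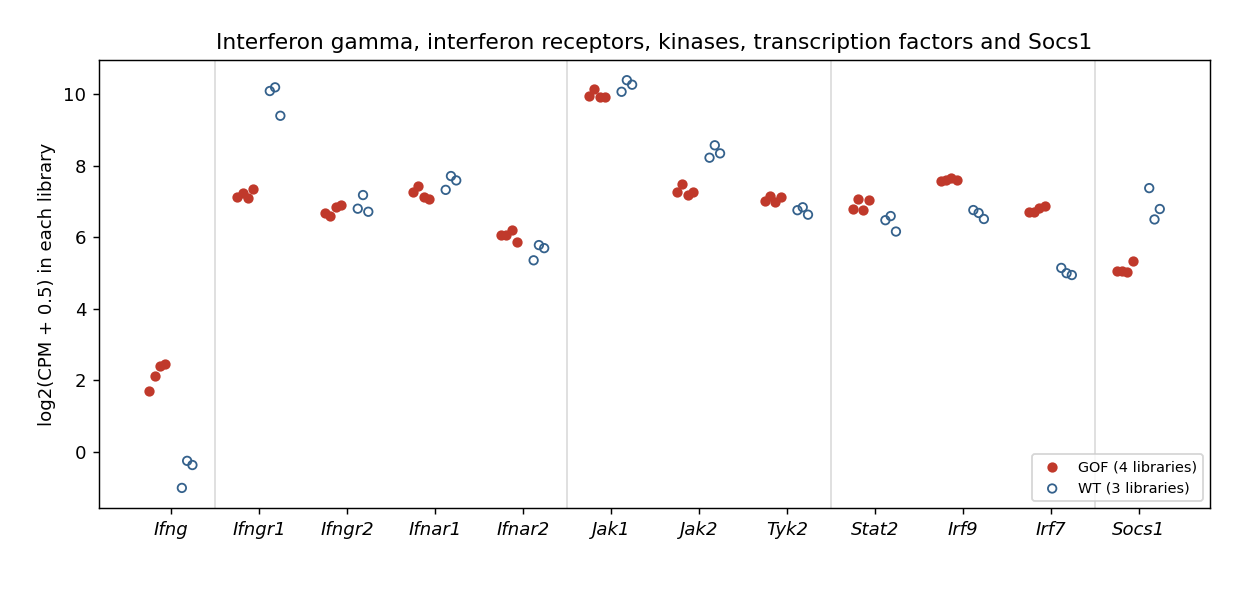
Log2(CPM + 0.5) in each library for interferon gamma, 4 receptor chains, 3 kinases, 3 transcription factors and the inhibitor Socs1 (filled red, 4 GOF; open blue, 3 WT). GOF points lie above WT for Ifng, Ifnar2, Tyk2, Stat2, Irf9 and Irf7 and below for Ifngr1, Jak2 and Socs1. They overlap for Ifngr2, Ifnar1 and Jak1.

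Outside the 38 members, 6 of 19 genes of nucleic acid sensing were higher and 2 lower, where 16.8% and 14.5% of all tested genes were. Irf7, the factor that amplifies type I interferon, had 105, 103, 113 and 117 CPM in GOF replicates 1 to 4, against 34.8, 31.4 and 30.3 CPM in WT replicates 1 to 3 (log2 1.77, adjusted p = 6.23e-06). Tmem173, the adaptor STING, rose 1.44-fold, while Samhd1, which depletes nucleotides, fell to 695 CPM in GOF, against 1084 CPM in WT (adjusted p = 0.00131 and 0.000928). Of 38 further interferon-induced genes 25 rose and 4 fell, with a median log2 fold change of 0.85. Ly6c1 and Ly6a, surface proteins of the Ly6 family, rose with log2 fold changes of 1.95 and 1.89 (adjusted p = 9.98e-06 and 7e-05). Slfn1 and Slfn2, schlafen genes, of which Slfn2 is known to keep T cells quiescent, fell with log2 fold changes of -1.16 and -0.98 (adjusted p = 3.97e-05 and 4.76e-05). Of 14 tested copies or relatives of members 11 rose.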

How the data were processed

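Per the submitters' processing notes, reads were handled with HISAT2 2.0.4, Cufflinks 2.1.1 and Cuffdiff on the mm10 genome. The sources used here do not give the counting rule or its strand setting. The deposited table holds raw read counts per gene and FPKM, and the authors' FPKM equalled the count over a fixed gene length and the library total within 0.1% for 100% of values. Counts were tested with edgeR 4.0.16 (R 4.3.3): filterByExpr, TMM scaling, all 7 libraries, quasi-likelihood test, Benjamini-Hochberg adjustment over 12668 genes and a threshold of 0.05. CPM are counts over the TMM-scaled totals, and FPKM were used to compare levels between genes. limma 3.58.1 and DESeq2 1.42.0 served as alternatives. Code was tested on simulated data.

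The series text gives mice as replicates, so p-values measure the spread between mice. The members and all gene lists were chosen with earlier results of these data known. The 4 members with the smallest p in each of 6 role groups, and all that did not pass, are given in full; from the other lists, up to 4 genes with the smallest p are named, and other named genes were chosen after their values were seen. No replicate pair looked like copies of 1 library (chi-square per degree of freedom at least 12.0). The loci of 11 members overlap another gene, such as Adar with Chrnb2, and reads there cannot be assigned without the strand setting. Of the list symbols outside the members 3 were not in the table used, and 59 symbols occur more than once, for which the entry with most counts was used. Promoter sequences are from RefSeq (GRCm38.p6). Some genes of the lists are not reported here by name, although the lists' counts include them.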

Additional observations from a re-analysis of the deposited data

How the results depend on the processing

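Over 17 alternatives 35 of 38 members kept their direction and their side of the threshold, and 0 members turned direction. The exceptions were Adar and Sp100, which lost their call under several, and Parp14, which passed with the replicate block (log2 0.35, adjusted p = 0.0273 in edgeR). Members called higher numbered 32 to 34 when each library was left out in turn, with 0 lower, and 34 under DESeq2, limma, other scalings and no filter. A mean of at least 5 FPKM left 29 members in the test, of which 25 were higher. The members' median log2 fold change was 1.84 with upper quartile scaling, 1.46 and 1.52 with limma on log2(FPKM + 1) and log2(FPKM + 0.5), 1.56 with at least 5 FPKM, 1.84 without GOF replicates 2 and 4, and 1.59 to 1.87 with single libraries left out. All genes called numbered 2989 to 3802 with single libraries left out, against 3968 with all, 2162 with at least 5 FPKM, where fewer genes were tested, and 2124 without GOF replicates 1 and 3, where fewer libraries were used. Of the other named genes, Flt3 had a log2 fold change of -0.14 to 0.53 with single libraries left out, below 0 without GOF replicate 3, and of -0.77 without GOF replicates 1 and 3. Tcf4 had -0.30 to 0.039 with single libraries left out, above 0 without WT replicate 3. Neither passed where it turned direction, and the cause was not tested. Same-numbered libraries did not pair (correlations of deviations 0.026, 0.147 and -0.041), and only GOF replicate 2 correlated best with its own number; with the replicate block 3196 genes were called and 34 members were higher, with a median of 1.76. A count of 0 in a library allows a level of up to 0.180 to 0.215 CPM, for counting error only.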
